A study of Mus musculus with 6 samples.

Results

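The cells described are endothelial cells of heart capillaries that were captured together with cardiac leukocytes, chosen by their own UMI counts. A cell was taken as capillary endothelial when it had at least 200 genes detected, at most 10% mitochondrial UMIs, 3 or more UMIs of Fabp4 and Gpihbp1 together and 2 or more of Pecam1, Cdh5 and Kdr together. UMIs are unique molecular identifiers, each standing for 1 captured transcript. Cells were left out with 3 or more UMIs of the endocardial genes Npr3 and Cytl1, 10 or more of the macrophage genes C1qa, C1qb and C1qc, 2 or more of the B cell genes Cd79a and Cd79b, or 3 or more of the fibroblast genes Col1a1 and Dcn. This left 2086 cells of the 32761 that passed the gene and mitochondrial filters in all 6 libraries.

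The 6 droplet libraries were made from CD45+ cells of mouse hearts collected 28 days after a single fraction of 12 Gy from a small-animal irradiator, or after a sham procedure. There were 2 irradiated libraries labelled STING KO (titles "C57Bl6J mice Tmem mice"), 2 irradiated C57Bl6J wild-type (WT) libraries and 2 sham-treated C57Bl6J WT libraries. STING, encoded by Tmem173, is the adaptor that links cytosolic DNA sensing to type I interferon. The 6 libraries held no sham group of the knockout label. The labels give neither the age of the mice nor the kind of allele. They also name no animal behind a library, so p-values measure library-to-library spread that may be technical. CD45, encoded by Ptprc, is the pan-leukocyte marker, so these endothelial cells were not the target of the isolation and their number is set in part by it.

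Capillary endothelial cells of the heart carry fatty acids from the blood to the myocytes. Gpihbp1 anchors lipoprotein lipase on their luminal face, Cd36 takes up the fatty acids and Fabp4 binds them in the cytosol. In adult tissue these cells divide rarely, and ionising radiation is known to activate p53 in the endothelium, the transcription factor that induces cell cycle arrest and death genes after DNA damage.

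Capillary markers that the rule did not use went with the labelled identity, but markers of some other cell types were higher in these cells too. Set against all other kept cells, as a description with no test, the genes with the highest ratio of CPM (UMI counts of the summed cells, scaled to an equal library total) included Aqp7 (174 against 2.37 CPM), C1qtnf9 (414 against 5.88 CPM), Tcf15 (352 against 5.06 CPM), which with Meox2 controls fatty acid transport genes, and Ly6c1 (1887 against 29.2 CPM). All 23 listed capillary markers that the rule did not use were higher in these cells than in the other cells. So were all 20 arterial genes, all 10 cardiomyocyte markers and all 10 mural markers (pericytes and smooth muscle). The mural gene Rgs5 was at 1737 against 55.4 CPM. The 13 macrophage markers that the rule did not use summed to 811 and 903 CPM in the knockout-labelled, 1218 and 552 CPM in the irradiated WT and 1032 and 1503 CPM in the sham libraries, and each of the 13 was lower than in the other cells. After each cell had been thinned to 2000 UMIs, Ptprc was seen in 7.79%, 7.57% and 8.40% of capillary cells as the mean of the knockout-labelled, irradiated WT and sham libraries, against 74.8%, 66.4% and 74.3% of B cells.

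The members numbered 615 and 320 in the knockout-labelled libraries, 201 and 310 in the irradiated WT libraries and 294 and 346 in the sham libraries. They made up 10.5% (95% exact binomial interval 9.73 to 11.3%) and 5.19% (4.65 to 5.77%) of the kept cells in the knockout-labelled libraries, 5.76% (5.01 to 6.58%) and 4.89% (4.38 to 5.45%) in irradiated WT, and 6.26% (5.59 to 6.99%) and 5.56% (5.01 to 6.16%) in sham. These intervals cover counting error only. Replicate 1 of the knockout-labelled libraries stood apart with the highest share of all libraries. The share in irradiated WT (5.32% ± 0.61, SD, n = 2) and in sham (5.91% ± 0.49, SD, n = 2) overlapped, with an exact two-sided permutation p of 0.667, where 2 libraries against 2 cannot give a p under 0.333. With mitochondrial UMIs limited to 5%, the difference of irradiated WT minus sham was 1.60 percentage points, against -0.588 in the main setting, and the shares of 8.56% and 7.87% in irradiated WT did not overlap those of 7.60% and 5.63% in sham.

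Median depth per member was 8318 and 7490 UMIs in the knockout-labelled, 8656 and 6099 in the irradiated WT and 5422 and 5526.5 in the sham libraries, so sham cells were shallower. The median mitochondrial share was 3.97% and 3.84% in the knockout-labelled, 4.73% and 5.39% in the irradiated WT and 5.73% and 5.48% in the sham libraries. Between 0 and 5 member barcodes were shared by any of the 15 pairs of libraries. Few cells lay at the threshold: between 2 and 7 members per library had exactly 3 UMIs of Fabp4 and Gpihbp1, and between 3 and 6 cells that met every other criterion had 2. Summed over members, the libraries held between 2184196 and 7372954 UMIs, with the largest sum in replicate 1 of the knockout-labelled libraries.

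The targeted gene did not separate the labels. Tmem173 was at 30.7 and 32.8 CPM in the libraries labelled STING KO, 32.3 and 44.8 CPM in irradiated WT and 31.5 and 29.0 CPM in sham, a log2 fold change of -0.29 ± 0.17 (SE) between the libraries labelled STING KO and irradiated WT with an edgeR adjusted p of 0.496. A 3′ tag count outside the altered part of a gene checks nothing, and the labels do not describe the allele.

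The first comparison set irradiated against sham WT hearts and asks how capillary cells differ 28 days after 12 Gy. Counts summed per library were tested with edgeR's quasi-likelihood F test for all genes. Genes with a Benjamini-Hochberg adjusted p below 0.05 were called. Of 11356 genes tested, 851 were called (7.49%), 481 higher (4.24%) and 370 lower (3.26%), with a median log2 fold change over all genes of -0.000449. Fold changes are given as log2 values ± SE. For every list count of this comparison below, the shares over all genes are 4.24% higher and 3.26% lower for edgeR calls. At an unadjusted p under 0.05 they are 13.2% higher and 12.0% lower.

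Among the 12 largest rises were Gdf15, Phlda3, Eda2r and Zmat3, all p53 targets. Gdf15, a secreted stress cytokine of the TGF-beta superfamily, was at 542 and 629.7 CPM in the knockout-labelled, 564 and 768 CPM in the irradiated WT and 57.1 and 36.2 CPM in the sham libraries. Every irradiated library of either label lay far above both sham libraries, and the fold change in WT was 3.85 ± 0.21 with an edgeR adjusted p of 1.54e-05. Phlda3, a p53-induced inhibitor of Akt, stood at 282 and 259 CPM in the knockout-labelled, 315 and 377 CPM in the irradiated WT and 54.8 and 62.2 CPM in the sham libraries (2.56 ± 0.13 in WT, edgeR adjusted p 1.30e-05). Bax, the pore-forming activator of mitochondrial cell death, stood at 529 and 515 CPM in the knockout-labelled, 573 and 564 CPM in the irradiated WT and 149 and 153 CPM in the sham libraries (1.91 ± 0.09, edgeR adjusted p 1.15e-05). For both genes the irradiated and sham libraries did not overlap, which by itself held for 53.5% of all genes tested between irradiated and sham WT and for 58.5% between knockout-labelled and sham libraries.

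Cdkn1a, which encodes the cell cycle inhibitor p21, was already well detected in sham cells, with 1129.8 and 1078 CPM in the knockout-labelled, 1351 and 1822 CPM in the irradiated WT and 535 and 706 CPM in the sham libraries. It rose by 1.35 ± 0.15 in irradiated WT (edgeR adjusted p 0.0015). Mdm2, the ubiquitin ligase that restrains p53, was at 123 and 119.8 CPM in the knockout-labelled, 106 and 154 CPM in the irradiated WT and 53.9 and 52.3 CPM in the sham libraries (1.29 ± 0.17, edgeR adjusted p 0.00322). Zmat3, an RNA-binding p53 target, rose by 2.34 ± 0.21 and Eda2r, a receptor of the TNF family, by 2.44 ± 0.30 in irradiated WT (edgeR adjusted p 0.000465 and 0.00231). Of 38 tested p53 targets 17 were higher, between 0.92 and 4.62, and 0 were lower, with a list median of 0.50. At an unadjusted p under 0.05, 18 were higher and 2 lower, beside 13.2% of all genes higher and 12.0% lower, and DESeq2 called 15 higher and 0 lower. The upper end of that range is Gtse1, named after its values were seen, which rests on 3 UMIs in sham cells against 81 in irradiated WT cells, a ratio of 26.0 with a counting interval of 8.57 to 128. With any 1 library left out 13 to 17 p53 targets were called higher, and with each cell thinned to 2000 UMIs 9 were.

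**Figure D1:**
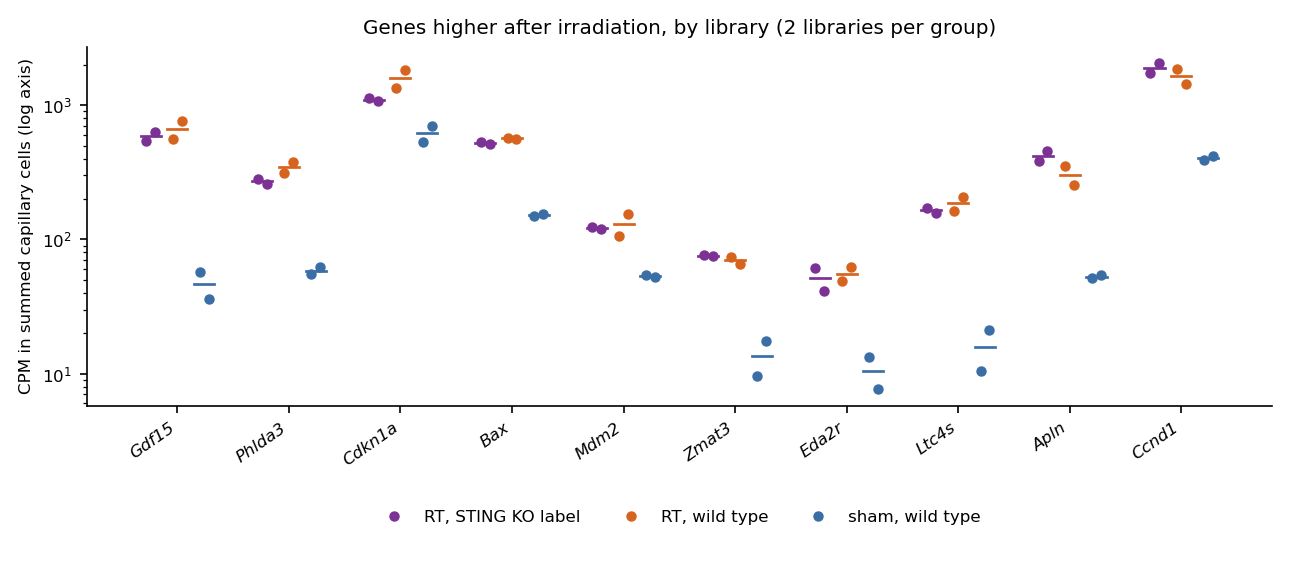
CPM in capillary cells summed per library (log axis) for 10 genes called higher in irradiated WT hearts, with 1 point per library and a bar at the mean of the 2 libraries of a group. The 4 irradiated libraries of either label lie above both sham libraries for each gene, with Gdf15 between 542 and 768 CPM in irradiated libraries and between 36.2 and 57.1 CPM in sham libraries.

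The promoters of some of these genes carry letters that match a p53 half-site, and 3 are shown because they belong to genes at the centre of the p53 response. The matches are in capitals and the windows hold 300 bases around the gene start (RefSeq, GRCm38.p6), 5′ to 3′ on the strand of the gene.
Bax, chr7:45466849-45467148, minus strand: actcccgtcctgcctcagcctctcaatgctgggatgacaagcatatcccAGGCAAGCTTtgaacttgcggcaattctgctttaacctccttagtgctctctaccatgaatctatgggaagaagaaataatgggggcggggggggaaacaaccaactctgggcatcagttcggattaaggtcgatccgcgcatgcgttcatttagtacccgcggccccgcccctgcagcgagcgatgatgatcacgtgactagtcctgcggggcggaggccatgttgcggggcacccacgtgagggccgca
Mdm2, chr10:117710709-117711008, minus strand: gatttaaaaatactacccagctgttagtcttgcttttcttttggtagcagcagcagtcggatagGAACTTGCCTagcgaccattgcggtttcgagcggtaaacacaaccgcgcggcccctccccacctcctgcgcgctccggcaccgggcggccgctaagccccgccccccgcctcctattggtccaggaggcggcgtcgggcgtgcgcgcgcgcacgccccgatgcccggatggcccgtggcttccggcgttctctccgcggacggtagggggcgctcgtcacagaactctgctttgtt
Cdkn1a, chr17:29090729-29091028, plus strand: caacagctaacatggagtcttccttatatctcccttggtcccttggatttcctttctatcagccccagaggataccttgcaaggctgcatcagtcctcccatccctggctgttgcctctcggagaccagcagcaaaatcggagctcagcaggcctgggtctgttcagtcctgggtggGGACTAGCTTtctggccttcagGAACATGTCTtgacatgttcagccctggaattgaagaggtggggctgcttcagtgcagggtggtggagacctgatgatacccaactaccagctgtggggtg
A half-site match was present in 8 of the 15 called p53 targets that had a promoter in the table, and in 2 of the 16 matched p53 targets that were tested and not called. Of all 27025 genes with a promoter there, 9.55% had one. Both strands were searched. Cdkn1a held 2 matches, at positions -73 and -51 from the start, and Bax and Mdm2 held 1 each, at -201 and -186. A match is a description of the letters, and binding was not measured.

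The other large rises fell outside the p53 list. Ltc4s, the enzyme that makes leukotriene C4, was at 172 and 157 CPM in the knockout-labelled, 164 and 208 CPM in the irradiated WT and 10.5 and 21.0 CPM in the sham libraries, a fold change of 3.53 ± 0.23 in WT (edgeR adjusted p 5.09e-05). Apln, the peptide ligand apelin that sprouting endothelial cells make, was at 386 and 455 CPM in the knockout-labelled, 352 and 254 CPM in the irradiated WT and 51.1 and 54.2 CPM in the sham libraries (2.52 ± 0.17, edgeR adjusted p 5.99e-05). Both genes were under 60 CPM in sham cells and above 150 CPM in every irradiated library. Its receptor gene Aplnr was not called, at 191 and 231 CPM in the knockout-labelled, 229.9 and 222 CPM in the irradiated WT and 193 and 149 CPM in the sham libraries. The remaining rises among the 12 largest were Ccdc184 (3.10), the nicotinamide-methylating enzyme Nnmt (2.55), the protease inhibitor Cst6 (2.47), the ciliary transport gene Ift122 (2.30), Thyn1 (2.22) and Enho (2.11), which encodes the secreted peptide adropin.

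Detection within the population differed from gene to gene. After thinning to 2000 UMIs per cell, Gdf15 was detected in 32.6% and 38.5% of knockout-labelled, 40.2% and 40.5% of irradiated WT and 5.84% and 4.19% of sham capillary cells, while B cells, which served as a background of free RNA, showed it in 0 to 1.40%. Between 45.2% and 51.9% of the irradiated capillary cells of a library had no Gdf15 UMI even without thinning. The tenth of cells with the most Gdf15 UMIs held 57.6% to 69.9% of them. In the same unthinned cells that share was 39.8% to 46.0% for Cdkn1a and 37.9% to 44.1% for Phlda3. Between 5.81% and 14.0% of these cells had no Cdkn1a UMI. Depth varied between cells, and its part in these unthinned values was not tested. Cdkn1a was detected in 76.2% and 70.7% of thinned knockout-labelled, 81.6% and 88.9% of irradiated WT and 51.0% and 58.7% of sham capillary cells. Apln was detected in 28.1% and 32.5% of knockout-labelled, 19.5% and 24.4% of irradiated WT and 6.61% and 6.13% of sham cells, and in at most 0.524% of B cells. For all of these genes the irradiated and sham libraries did not overlap. B cells had median depths of 2349 to 4942 UMIs before thinning.

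Cell cycle genes divided into the D-type cyclins and the genes of replication and mitosis. Ccnd1, the cyclin that opens the G1 phase, was at 1755 and 2056 CPM in the knockout-labelled, 1864 and 1452 CPM in the irradiated WT and 389.9 and 421 CPM in the sham libraries, a rise of 2.03 ± 0.13 in WT (edgeR adjusted p 4.22e-05). Ccnd2 rose by 0.57 ± 0.09, Ccnd3 by 0.66 ± 0.15 and the tubulin gene Tubb5 by 0.53 ± 0.12. In all, 8 of 47 tested cell cycle genes were higher in irradiated WT, and 23 were higher and 0 lower at an unadjusted p under 0.05, which 13.2% of all genes passed higher and 12.0% lower. Mki67, a marker of dividing cells, was at 55.4 and 66.8 CPM in the knockout-labelled, 25.9 and 32.8 CPM in the irradiated WT and 10.5 and 19.8 CPM in the sham libraries, which did not pass in WT (edgeR adjusted p 0.0688). Against sham, the knockout-labelled libraries had 27 of the 47 genes higher, beside 5.64% of all genes called higher in that comparison, and Mki67 rose by 1.97 ± 0.24 (edgeR adjusted p 0.00114). Against irradiated WT they had 0 of the 47 called by edgeR or DESeq2, with a list median of 0.45. There 19 were higher and 0 lower at an unadjusted p under 0.05, beside 6.39% of all genes higher and 6.97% lower. Dividing cells were rare in every library: 3 or more UMIs of Mki67, Top2a, Birc5, Ccnb2 and Cdk1 together were found in 42 of 615 and 22 of 320 knockout-labelled, 9 of 201 and 13 of 310 irradiated WT and 6 of 294 and 9 of 346 sham cells. Sham cells were also the shallowest. At 2000 UMIs the shares were 3.40% and 3.89% in knockout-labelled, 3.45% and 2.87% in irradiated WT and 0.778% and 1.29% in sham cells.

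Other inhibitors of the cell cycle fell in irradiated WT. Cdkn1c, encoding p57, was at 142 and 110.2 CPM in the knockout-labelled, 174 and 204 CPM in the irradiated WT and 330.1 and 379 CPM in the sham libraries (-0.91 ± 0.14, edgeR adjusted p 0.00643), and Cdkn1b, encoding p27, had a log2 fold change of -0.80 ± 0.13 (edgeR adjusted p 0.00738). In both, each irradiated library was below each sham library. Of 30 tested genes linked to cell cycle inhibition or senescence, 3 were higher and 6 lower, with the growth factor binding protein gene Igfbp4 among those lower (-0.97).

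**Figure D2:**
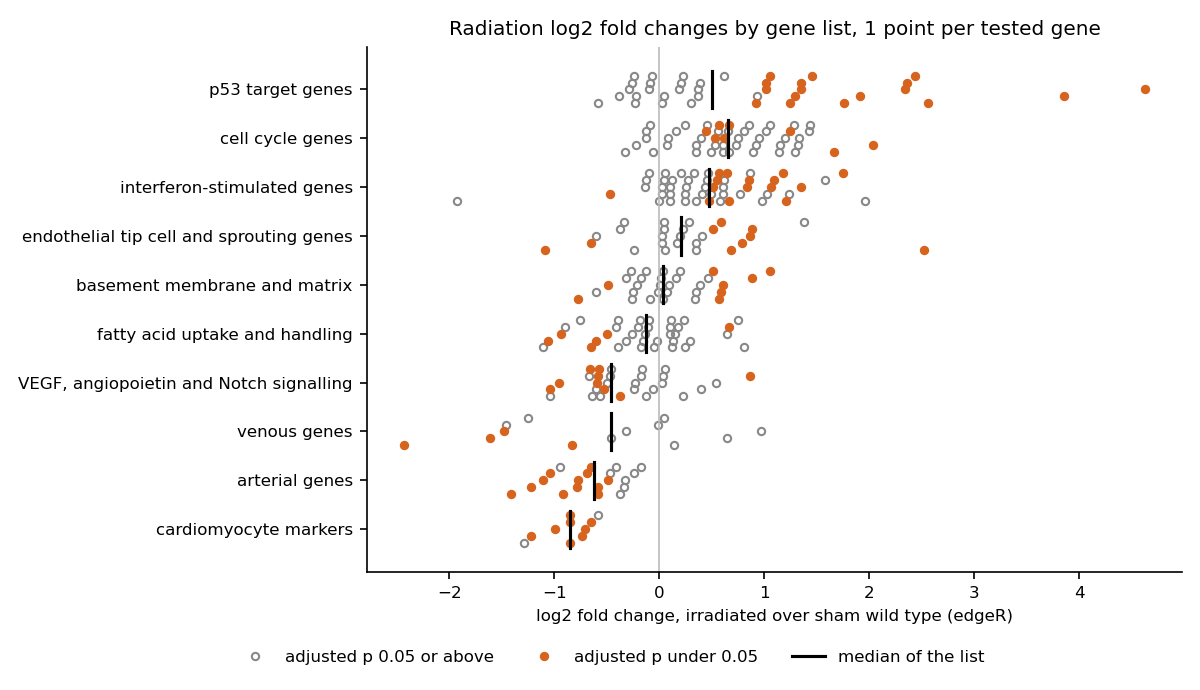
Radiation log2 fold change (irradiated over sham WT, edgeR) of each tested gene in 10 gene lists, 1 point per gene, filled where the adjusted p was under 0.05, with a black bar at the list median. The p53 list has its called genes on the right, 17 of 38, and the arterial and cardiomyocyte lists have theirs on the left, 12 of 20 and 8 of 10.

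Genes of arterial identity fell together. Sema3g, a semaphorin of arterial endothelium, was at 72.6 and 78.4 CPM in the knockout-labelled, 90.6 and 88.4 CPM in the irradiated WT and 193 and 176 CPM in the sham libraries (-1.04 ± 0.11, edgeR adjusted p 0.000958). Gja5, the arterial connexin 40, was at 17.8 and 19.0 CPM in the knockout-labelled, 22.4 and 20.8 CPM in the irradiated WT and 68.0 and 47.3 CPM in the sham libraries (-1.41 ± 0.20, edgeR adjusted p 0.00447). For both genes every irradiated library was below both sham libraries. Nebl fell with a log2 fold change of -1.23 ± 0.14 and the matrix protein gene Fbln2 with -0.91 ± 0.12. Of 20 arterial genes 12 were lower and 0 higher (0 also at an unadjusted p under 0.05 and by DESeq2), all 20 fold changes were negative, and the median was -0.62. Capillary cells with 2 or more UMIs of Gja5, Gja4, Sema3g, Alox12 and Fbln5 together made up 12.5% and 13.4% of thinned knockout-labelled, 12.1% and 15.1% of irradiated WT and 27.2% and 24.2% of sham cells. In the summed counts, fewer cells of a type and less RNA per cell cannot be told apart. With mitochondrial UMIs limited to 5%, which kept 110 and 132 irradiated WT and 109 and 131 sham cells, 2 arterial genes were called lower, and with thinned cells 5 were.

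Some venous and signalling genes also fell. Vwf, the platelet-binding von Willebrand factor of larger and venous vessels, was at 30.3 and 27.6 CPM in the knockout-labelled, 21.6 and 30.4 CPM in the irradiated WT and 95.4 and 64.9 CPM in the sham libraries (-1.61 ± 0.22, edgeR adjusted p 0.00365). The venous transcription factor gene Nr2f2 had a log2 fold change of -0.84 ± 0.19. Both were among 4 of 13 tested venous genes that were lower, with 0 higher and a list median of -0.46. At an unadjusted p under 0.05, 2 venous genes were higher and 6 lower, beside 13.2% of all genes higher and 12.0% lower. DESeq2 called 1 venous gene higher and 4 lower. Of 29 genes of VEGF, angiopoietin and Notch signalling 8 were lower and 1 higher, with a median of -0.46. Of all genes, 3.26% were lower and 4.24% higher. At an unadjusted p under 0.05, 14 of the 29 were lower and 3 higher, and DESeq2 called 9 lower and 2 higher. Tek, the angiopoietin receptor, stood at 109 and 106 CPM in the knockout-labelled, 79.8 and 126 CPM in the irradiated WT and 225 and 199.9 CPM in the sham libraries (-1.04 ± 0.18, edgeR adjusted p 0.00941). Flt1, a receptor that binds VEGF, had a log2 fold change of -0.59 ± 0.12, the ligand gene Vegfc had -0.66 ± 0.13 and the Notch target Hey1 -0.58 ± 0.11. With 1 library left out, 1 to 10 of these 29 genes were called lower, the 1 without sham replicate 1 and 4 without either knockout-labelled library, irradiated WT replicate 1 or sham replicate 2, and with mitochondrial UMIs limited to 5%, 0 were.

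**Figure D3:**
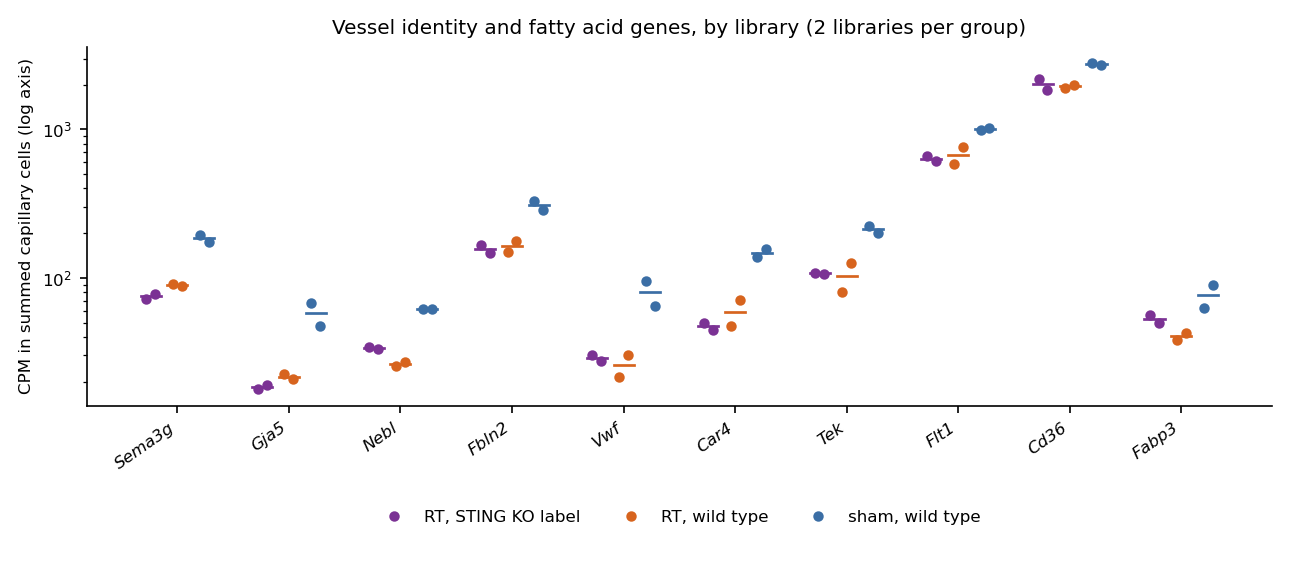
CPM in capillary cells summed per library (log axis) for 10 genes of arterial, venous, capillary and fatty acid function, with 1 point per library and a bar at the mean of the 2 libraries of a group. Each irradiated library of either label lies below both sham libraries for these genes, as with Gja5 at 17.8 to 22.4 CPM in irradiated libraries and 47.3 and 68.0 CPM in sham libraries.

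Genes of sprouting and of the basement membrane moved in both directions. Of 26 tip cell and sprouting genes 7 were higher and 2 lower, beside 4.24% of all genes higher and 3.26% lower. Apln was the largest rise among them and Igf1r, a growth factor receptor gene, the largest fall (-1.09 ± 0.13, edgeR adjusted p 0.00231). Cd34, a sialomucin of the luminal surface, stood at 739 and 735 CPM in the knockout-labelled, 714 and 768 CPM in the irradiated WT and 441 and 484 CPM in the sham libraries (0.68 ± 0.09, edgeR adjusted p 0.00283). Sparc, a collagen-binding matricellular protein, stood at 4751 and 5043 CPM in the knockout-labelled, 4963 and 4399.8 CPM in the irradiated WT and 1926 and 2572 CPM in the sham libraries (1.06 ± 0.12, edgeR adjusted p 0.0015). The collagen IV chains of the basement membrane moved together, Col4a1 by 0.51 ± 0.08 and Col4a2 by 0.59 ± 0.08, and for Col4a2 the levels were 1403 and 1378 CPM in the knockout-labelled, 1152 and 1112 CPM in the irradiated WT and 745 and 765 CPM in the sham libraries. In all 6 of 30 matrix genes were higher and 2 lower, beside 4.24% of all genes higher and 3.26% lower. The elastic fibre gene Fbln5 was one of the matrix genes called lower (-0.77). Without sham replicate 1, 4 of the sprouting genes were called higher. Between knockout-labelled and irradiated WT libraries edgeR called 0 of the 30 matrix genes and DESeq2 called 3 higher and 0 lower. At an unadjusted p under 0.05, 11 were higher and 4 lower, beside 6.39% of all genes higher and 6.97% lower.

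Lipid handling and capillary identity shifted by smaller amounts. Cd36, the fatty acid translocase, was at 2202 and 1849.7 CPM in the knockout-labelled, 1892 and 2004 CPM in the irradiated WT and 2788 and 2705 CPM in the sham libraries (-0.50 ± 0.09, edgeR adjusted p 0.0121). Fabp3, the heart-type fatty acid binding protein gene that cardiomyocytes express at high levels, had a log2 fold change of -0.93 ± 0.18 and the glycerol channel gene Aqp7 of -0.60 ± 0.10, while Fabp5, the epidermal-type binding protein gene, rose by 0.66 ± 0.11. Of 36 tested genes of fatty acid uptake and handling, 1 was higher and 5 lower, beside 4.24% of all genes higher and 3.26% lower. The median of these 36 genes was -0.12. With 1 library left out 2 to 6 were lower, 2 without irradiated WT replicate 1 or sham replicate 2 and 3 without sham replicate 1 or either knockout-labelled library, and with mitochondrial UMIs limited to 5%, 0 were. Lpl was not called (-0.39 ± 0.15, edgeR adjusted p 0.151). Among 23 capillary markers that the rule did not use, 7 were lower and 0 higher (3 at an unadjusted p under 0.05 and 0 by DESeq2), Car4, a carbonic anhydrase of the capillary surface, by the largest amount (-1.32 ± 0.17, edgeR adjusted p 0.00297). Btnl9 was also lower (-0.55). The rule's own genes are given as a description, with no test: Gpihbp1 was detected in 90.4% and 89.7% of knockout-labelled, 88.1% and 90.6% of irradiated WT and 88.4% and 89.3% of sham members, and Cdh5 in 95.9% and 96.3% of knockout-labelled, 92.0% and 97.1% of irradiated WT and 98.0% and 96.0% of sham members.

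The transcripts of cardiomyocytes, the muscle cells that capillaries adjoin, were lower in the irradiated libraries. Myh6, the cardiac myosin heavy chain, was at 25.8 and 21.2 CPM in the knockout-labelled, 31.5 and 31.2 CPM in the irradiated WT and 60.3 and 64.5 CPM in the sham libraries (-0.99 ± 0.15, edgeR adjusted p 0.00643). Ttn, the sarcomere protein titin, had a log2 fold change of -1.22 ± 0.17, the myosin light chain gene Myl2 of -0.85 ± 0.13 and the myoglobin gene Mb of -0.71 ± 0.11. Of the 10 markers 8 were lower and 0 higher (0 also at an unadjusted p under 0.05 and by DESeq2), and their summed level ran from 620 to 624 CPM in the knockout-labelled, 550.2 to 583 CPM in the irradiated WT and 923 to 1092 CPM in the sham libraries. Their part in the fall of Fabp3 was not tested. Lower levels were not limited to capillary cells. In macrophages of the same libraries edgeR called Myh6 (-0.66), Ttn (-0.86) and Myl2 (-0.40) lower in irradiated WT, and Mb (-0.52) was not called.

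Markers of other cell types moved with the groups too, and they made up much of the list of largest falls. Ccl21a, a chemokine of lymphatic endothelium, was at 44.1 and 6.90 CPM in the knockout-labelled, 0 and 80.8 CPM in the irradiated WT and 452 and 364 CPM in the sham libraries, and the lymphatic gene Mmrn1 was at 34.3 and 47.8 CPM in the knockout-labelled, 0 and 47.6 CPM in the irradiated WT and 180.3 and 123 CPM in the sham libraries. Both were listed at 0 in irradiated WT replicate 1. The lymphatic genes Reln (-3.22) and Lyve1 (-3.22) were also called lower, and 7 of 10 lymphatic genes were, with 0 without sham replicate 1, 3 without either knockout-labelled library and 2 by DESeq2. Cells with 10 or more UMIs of Prox1, Mmrn1, Ccl21a and Nts together numbered 14 and 2 in the knockout-labelled, 1 and 7 in the irradiated WT and 12 and 9 in the sham libraries, and in 5 of the 6 libraries they held 86.6% to 97.3% of those UMIs (45.5% in irradiated WT replicate 1, of 22 UMIs). With cells of 2 or more such UMIs left out, which by construction removes lymphatic RNA, 16 p53 targets were called higher and 12 arterial genes lower. Ptn, the growth factor pleiotrophin, rests on 2 UMIs in irradiated WT against 123 in sham cells, a ratio of 0.0156 with a counting interval of 0.00187 to 0.0577, and 109 of the 123 came from sham replicate 1. The irradiated knockout-labelled libraries, with larger UMI sums, held 48 and 92 Ptn UMIs.

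Neutrophil and mural RNA also differed between libraries. The summed level of 8 neutrophil markers was 1358 and 1131 CPM in the knockout-labelled, 1031 and 718 CPM in the irradiated WT and 1116 and 7738 CPM in the sham libraries, so sham replicate 2 stood apart. The largest falls held the neutrophil gene Mmp8 (5.02 and 40.1 CPM in sham) and Lcn2 (3.59 and 21.6 CPM in irradiated WT and 107 and 98.4 CPM in sham). Lcn2 is among the 8 markers, but it was high in both sham libraries, unlike their summed level. With cells of 3 or more S100a8 and S100a9 UMIs left out, 17 p53 targets were called higher and 13 arterial genes lower. The other falls among the 12 largest were Clca3a1 (-2.80), the matrix genes Tnxb (-2.56) and Prelp (-2.35), the secreted glycoprotein gene Lrg1 (-2.43) and Cp (-2.14), which encodes ceruloplasmin. Mural markers of pericytes and smooth muscle summed over 10 genes to 2101 and 1828 CPM in the knockout-labelled, 3318 and 2647 CPM in the irradiated WT and 4304 and 3894 CPM in the sham libraries. With cells of 3 or more UMIs of the mural genes Rgs5, Acta2, Tagln and Myh11 left out, 16 p53 targets were called higher and 9 arterial genes lower. Of the markers of T and NK cells and of B cells, most were under 10 CPM, 9 of 10 and 7 of 8.

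Of 51 tested interferon-stimulated genes 14 were higher in irradiated WT capillary cells and 1 lower, with a median of 0.47. Irf7, the transcription factor that amplifies type I interferon, stood at 43.5 and 65.6 CPM in the knockout-labelled, 206 and 182 CPM in the irradiated WT and 75.3 and 77.1 CPM in the sham libraries. The irradiated WT libraries were the highest and the knockout-labelled ones below both sham libraries, and the fold change in WT was 1.35 ± 0.17 (edgeR adjusted p 0.00283). Bst2, which tethers budding viruses to the cell, stood at 547 and 633 CPM in the knockout-labelled, 907 and 791 CPM in the irradiated WT and 428 and 512 CPM in the sham libraries (0.85 ± 0.12, edgeR adjusted p 0.00388). Ifitm3, a membrane protein that blocks viral entry, rose by 0.57 ± 0.08 and Oasl2, of the oligoadenylate synthetase family, by 0.65 ± 0.12. Cxcl9 (1.93 ± 0.27) and Cxcl10 (1.75 ± 0.35), ligands of the T cell chemokine receptor Cxcr3, were the called members among 23 interferon-gamma response genes. Without sham replicate 1, 3 interferon-stimulated genes were higher, without sham replicate 2, 8 were, and with mitochondrial UMIs limited to 5%, 1 was.

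Shown next, in the same window, are 2 of the called interferon genes whose promoters hold the letters GAAANNGAAA, the core of the element that interferon-activated factors bind, with matches on either strand in capitals. Ifit3 was chosen after its values were seen.
Ifit3, chr19:34583279-34583578, plus strand: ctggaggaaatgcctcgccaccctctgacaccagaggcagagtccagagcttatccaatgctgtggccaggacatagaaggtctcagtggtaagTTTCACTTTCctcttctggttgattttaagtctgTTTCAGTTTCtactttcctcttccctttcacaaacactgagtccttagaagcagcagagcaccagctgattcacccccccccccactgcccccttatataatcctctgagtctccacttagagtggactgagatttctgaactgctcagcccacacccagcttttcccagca
Bst2, chr8:71537423-71537722, minus strand: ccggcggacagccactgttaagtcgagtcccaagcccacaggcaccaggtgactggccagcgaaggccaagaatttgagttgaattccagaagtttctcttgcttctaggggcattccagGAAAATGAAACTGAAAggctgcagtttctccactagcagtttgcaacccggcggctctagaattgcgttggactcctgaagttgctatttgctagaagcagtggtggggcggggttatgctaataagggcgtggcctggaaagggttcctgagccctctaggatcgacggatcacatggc
Both promoters held 2 matches, those of Bst2 overlapping each other, and neither held a p53 half-site match. The motif was present in 5 of the 11 called genes with a promoter in the table and in 15 of the 27 matched interferon-stimulated genes that were not called, beside 3.99% of all genes with a promoter there.

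Genes of leukocyte contact, antigen presentation and coagulation were called in small numbers. Sele, encoding the selectin that captures rolling leukocytes, was at 12.7 and 18.5 CPM in the knockout-labelled, 10.4 and 8.003 CPM in the irradiated WT and 3.65 and 2.29 CPM in the sham libraries (1.64 ± 0.43, edgeR adjusted p 0.0462). Icam2, constitutive on endothelium, rose by 0.48 ± 0.09. Icam1 was not called (0.53 ± 0.22, edgeR adjusted p 0.162), nor was Vcam1 (0.97 ± 0.26, edgeR adjusted p 0.0508) or Selp (-1.46 ± 0.57, edgeR adjusted p 0.143). The chemokine gene Cxcl16 rose by 1.19 ± 0.15 and Cxcl12, which retains leukocytes and progenitors, had a log2 fold change of -0.48 ± 0.09. Of 22 MHC class I presentation genes 3 were higher, H2-K1 by 0.44 ± 0.11. Of 27 haemostasis and vasoactive genes 5 were higher and 3 lower, beside 4.24% of all genes higher and 3.26% lower. Among the 27 were Anxa2, a plasminogen-binding annexin, at 0.84 ± 0.10 and the endothelin receptor gene Ednrb at -1.32 ± 0.26. Thbd (-0.36), Nos3 (-0.18), Edn1 (-0.42) and Klf2 (-0.22) did not pass.

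The cytoskeleton, glycolysis and growth factor lists completed the comparison. Vim, the intermediate filament vimentin, stood at 2638 and 2792 CPM in the knockout-labelled, 3043 and 2819 CPM in the irradiated WT and 1505 and 1562 CPM in the sham libraries (0.93 ± 0.07, edgeR adjusted p 0.000208), and the galectin gene Lgals1 rose by 0.86 ± 0.10. Both belong to the 19 tested genes of endothelial to mesenchymal transition, of which 2 were higher and 3 lower, and the smooth muscle actin gene Acta2 of that list, also a mural marker, had -0.67 ± 0.13. Of 23 tested glycolysis and hypoxia genes 7 were higher, among them the glycolytic enzyme genes Pkm, Ldha and Pgam1, with Pkm at 0.58 ± 0.11, Ldha at 0.52 ± 0.10 and Pgam1 at 0.60 ± 0.12, and the hypoxia-inducible factor gene Epas1 at -0.68 ± 0.10 was the 1 lower. With 1 library left out 0 to 5 of these 23 were called higher, 0 without sham replicate 1, 1 without either knockout-labelled library, 3 without irradiated WT replicate 1 and 4 without sham replicate 2. Of 33 TGF-beta and BMP genes 2 were higher and 5 lower, beside 4.24% of all genes higher and 3.26% lower. Tgfb2 (-1.70), Tgfbi (-1.80), Ltbp4 (-0.57) and the receptor gene Bmpr2 (-0.61) were lower. Junction genes gave 4 lower and 1 higher of 26, beside 3.26% of all genes lower and 4.24% higher. The called junction genes included Tjp1 (-0.57), Gja1 (-0.56) and the sphingosine phosphate receptor gene S1pr1 (-0.55).

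The radiation difference was then compared with that in the 12503 macrophages of the same libraries, the most numerous leukocytes, by testing the cell class by group interaction in edgeR with the library as a block. Of 14265 genes tested 310 were called (2.17%), 170 with a more positive difference in capillary cells (1.19%) and 140 with a more negative one (0.981%). Ltc4s was at 164 and 208 CPM in irradiated and 10.5 and 21.0 CPM in sham capillary cells, and at 188 and 245 CPM in irradiated and 223 and 312 CPM in sham macrophages, an interaction of 3.84 ± 0.15 (edgeR adjusted p 1.56e-07). The irradiated libraries of both classes overlapped in level, and the sham libraries did not. Gdf15 in macrophages was at 186 and 216 CPM in irradiated and 118 and 76.4 CPM in sham libraries, and its difference was larger in capillary cells by 2.75 ± 0.13 (edgeR adjusted p 4.47e-07). The p53 targets Bax (1.20 ± 0.11), Phlda3 (0.92 ± 0.14), Cdkn1a (0.81 ± 0.10) and Mdm2 (0.73 ± 0.15) also had a larger rise in capillary cells, as did Ccnd1 (1.10 ± 0.11).

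Other genes differed between the classes in the opposite sense. Irf7 rose more in macrophages, where it was at 219 and 168 CPM in irradiated and 40.5 and 44.6 CPM in sham libraries (capillary minus macrophage -0.86 ± 0.12, edgeR adjusted p 0.0046). Vwf fell in capillary cells and had 12.1 and 11.3 CPM in irradiated and 8.67 and 5.83 CPM in sham macrophages (-2.34 ± 0.23, edgeR adjusted p 0.000373). Fgl2, a fibrinogen-like protein, was at 23.1 and 52.4 CPM in irradiated and 193 and 113 CPM in sham capillary cells, against 169 and 109 CPM in irradiated and 93.0 and 72.3 CPM in sham macrophages (-2.73 ± 0.35, edgeR adjusted p 0.00221). Fgl2 belongs to the lymphatic list, whose RNA varied between libraries, and its part in this difference was not tested.

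**Figure D4:**
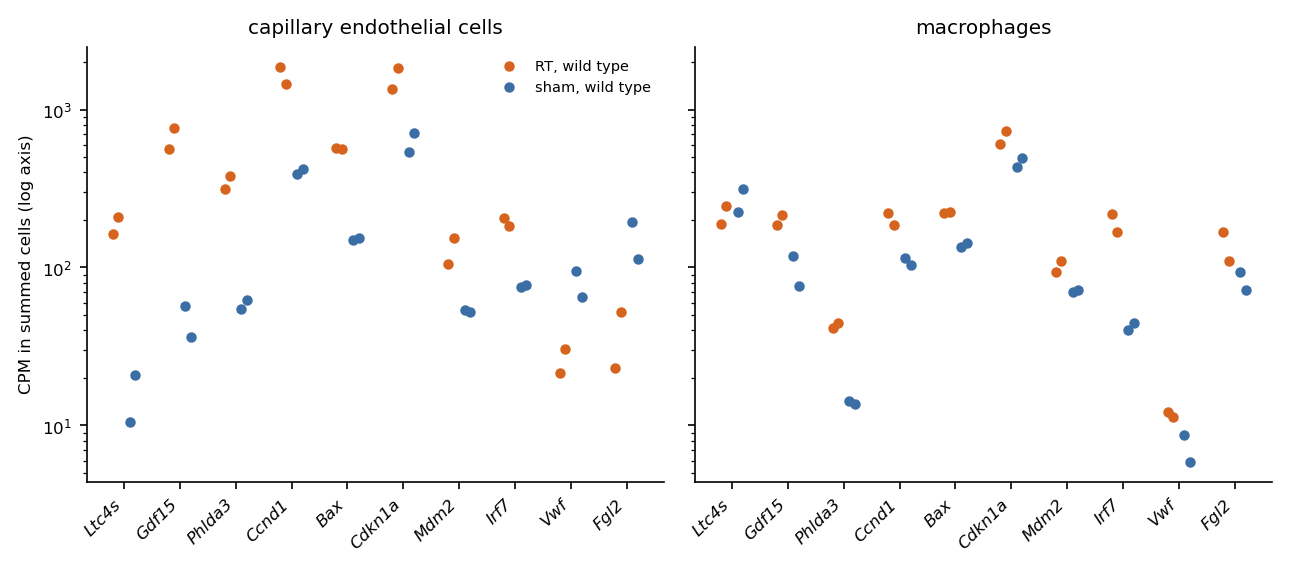
CPM per library (log axis) of 10 genes called in the cell class by group interaction, in capillary cells (left panel) and macrophages (right panel), for the 2 irradiated and the 2 sham WT libraries, 1 point per library. Gdf15 is at 564 and 768 CPM in irradiated and 57.1 and 36.2 CPM in sham capillary cells, and at 186 and 216 CPM in irradiated and 118 and 76.4 CPM in sham macrophages.

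The second comparison set irradiated libraries labelled STING KO against irradiated WT and asks how irradiated cells of the 2 labels differ. Without a sham library of the knockout label, a difference already present without irradiation cannot be told apart from a difference in the response. It called 22 of 11356 genes (0.194%), 5 higher (0.044%) and 17 lower (0.15%). Irf7 was lower in the knockout-labelled libraries by the log2 fold change -1.86 ± 0.17 (edgeR adjusted p 0.00147), with the levels given above. Isg20, an antiviral exonuclease, stood at 12.5 and 16.0 CPM in the knockout-labelled, 39.1 and 38.4 CPM in the irradiated WT and 13.7 and 22.1 CPM in the sham libraries (-1.47 ± 0.21, edgeR adjusted p 0.0375). Oasl2 stood at 55.8 and 59.7 CPM in the knockout-labelled, 91.0 and 98.4 CPM in the irradiated WT and 61.2 and 59.9 CPM in the sham libraries (-0.72 ± 0.11, edgeR adjusted p 0.0455). For these 3 genes the irradiated WT libraries were above the other 4, where 46.8% of all genes had no overlap between knockout-labelled and irradiated WT libraries.

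Those were the 3 genes called lower of 51 interferon-stimulated genes, against 0 higher. At an unadjusted p under 0.05, 39 were lower and 0 higher, beside 6.97% of all genes lower and 6.39% higher, and DESeq2 called 10 lower and 0 higher. The list median was -0.51, with 2 of 51 fold changes positive, beside -0.00549 over all genes. Bst2 (-0.53 ± 0.12, edgeR adjusted p 0.1), Ifitm3 (-0.47 ± 0.08, edgeR adjusted p 0.0602), Ly6a (-0.43 ± 0.11, edgeR adjusted p 0.136) and Cxcl10 (-0.98 ± 0.30, edgeR adjusted p 0.214) did not pass. Of 22 MHC class I genes 0 were called, 1 was higher and 13 lower at an unadjusted p under 0.05, and DESeq2 called 1 higher and 4 lower, with H2-D1 at -0.44 ± 0.09. Against sham, the knockout-labelled libraries had 0 of the 51 interferon-stimulated genes higher and 1 lower by edgeR, 2 higher and 10 lower at an unadjusted p under 0.05 (13.1% and 13.7% of all genes), and 0 higher and 1 lower by DESeq2. Leaving out 1 library gave between 1 and 9 interferon-stimulated genes lower in the knockout-labelled libraries than in irradiated WT, the 9 without irradiated WT replicate 1 and the 1 without knockout-labelled replicate 1.

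**Figure D5:**
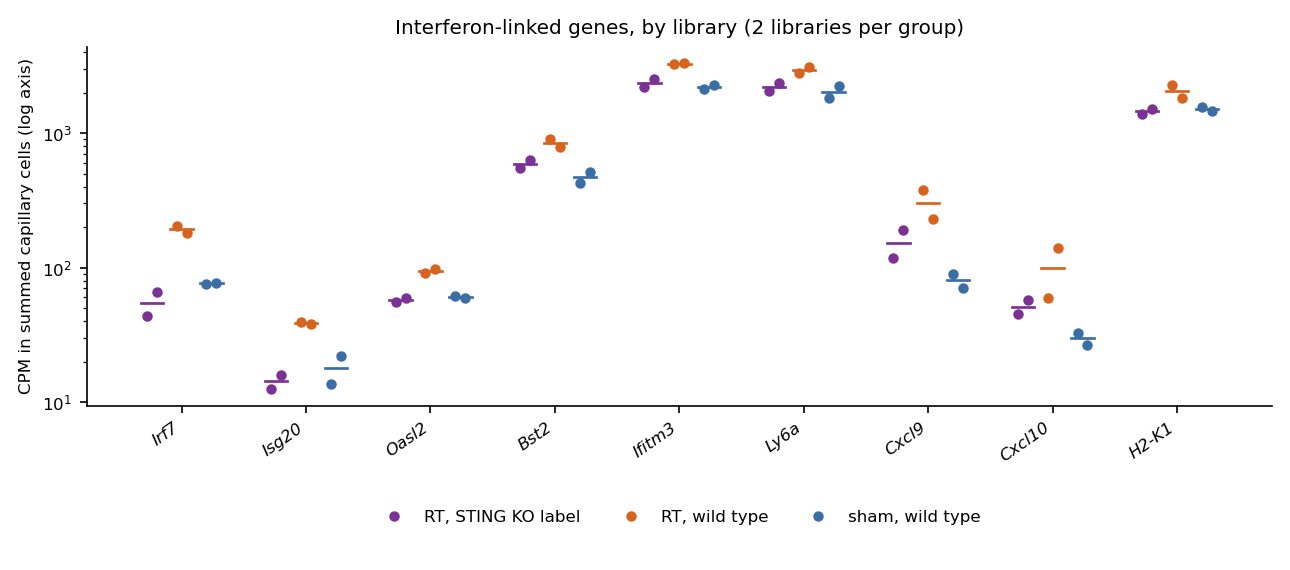
CPM in capillary cells summed per library (log axis) for 9 interferon-linked genes, with 1 point per library and a bar at the mean of the 2 libraries of a group. The irradiated WT libraries are the highest for Irf7 at 206 and 182 CPM, against 43.5 and 65.6 CPM in the knockout-labelled and 75.3 and 77.1 CPM in the sham libraries.

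Of 38 tested p53 targets, 0 were called between knockout-labelled and irradiated WT libraries by edgeR and 0 by DESeq2, with 2 higher and 6 lower at an unadjusted p under 0.05, which 6.39% of all genes passed higher and 6.97% lower. Without irradiated WT replicate 1, 4 were lower. Gdf15 had -0.19 ± 0.17 (edgeR adjusted p 0.685), Phlda3 -0.35 ± 0.11 (edgeR adjusted p 0.228) and Cdkn1a -0.52 ± 0.15 (edgeR adjusted p 0.191). A p above the threshold does not show that the groups were alike. Against sham, knockout-labelled libraries had 18 p53 targets higher and 2 lower of 38, 16 of 20 arterial genes lower beside 5.98% of all genes, and 1320 of 11356 genes called (11.6%). Apln rose there by 2.99 ± 0.17 (edgeR adjusted p 1.41e-05). These values share libraries with the other comparisons.

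The remaining genotype calls were of several kinds. Aldh1a3, which makes retinoic acid, was at 28.9 and 24.9 CPM in the knockout-labelled and 1.37 and 1.53 CPM in the sham libraries. Irradiated WT libraries held 3 UMIs, against 319 in the knockout-labelled libraries, so the ratio of knockout-labelled to irradiated WT was 45.9 with a counting interval of 15.6 to 224. Macrophages showed the same contrast for Aldh1a3, with 25.1 and 25.4 CPM in the knockout-labelled, 0.385 and 0.0642 CPM in the irradiated WT and 0.413 and 0.0694 CPM in the sham libraries. The transcript AY036118, which lies at chromosome 17, 39847113 to 39848035, minus strand (GRCm38), was at 458 and 381 CPM in the knockout-labelled and 77.4 and 104 CPM in the irradiated WT libraries, and in macrophages at 93.2 and 89.1 CPM in the knockout-labelled and 26.6 and 24.1 CPM in the irradiated WT libraries. The zinc transporter gene Slc39a1 was also higher (1.13 ± 0.14).

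Among the lower genes were several of mural cells. Pdgfrb, the pericyte receptor for platelet-derived growth factor, stood at 44.9 and 44.1 CPM in the knockout-labelled, 84.2 and 69.2 CPM in the irradiated WT and 113 and 115 CPM in the sham libraries (-0.78 ± 0.13, edgeR adjusted p 0.0496). Rgs4 (-1.12), the smooth muscle myosin light chain gene Myl9 (-0.85) and the tropomyosin gene Tpm2 (-0.73) were also lower. With mitochondrial UMIs limited to 5%, Myl9 and Tpm2 turned to 0.34 and 0.32 and were not called. The share of members with 3 or more mural UMIs was 16.4% and 19.1% in the knockout-labelled, 22.9% and 20.6% in the irradiated WT and 23.1% and 23.1% in the sham libraries. With those cells left out, the comparison called 11 genes and 1 interferon-stimulated gene lower. The clock gene Nr1d1 (-1.29 ± 0.19), which varies over the day, was at 45.2 and 39.2 CPM in the knockout-labelled, 92.6 and 115 CPM in the irradiated WT and 37.9 and 21.7 CPM in the sham libraries, and the hour of collection is not given in the labels. Colec11 (-1.13) and Crip1 (-0.46) completed the named falls. Of 25 heat shock and immediate early genes that dissociation can induce, edgeR called 0 between knockout-labelled and irradiated WT libraries. At an unadjusted p under 0.05, 0 were higher and 21 lower, and DESeq2 called 2 lower. Hspb1 was at 1620.4 and 1227 CPM in the knockout-labelled and 2301 and 3279 CPM in the irradiated WT libraries (-0.97 ± 0.16, edgeR adjusted p 0.0577). Against sham, the knockout-labelled libraries had 0 of the 25 higher and 13 lower by edgeR, beside 5.64% and 5.98% of all genes. DESeq2 called 0 higher and 9 lower there. Between irradiated and sham WT, edgeR called 1 of the 25 higher and 0 lower. The part of these genes in the other differences was not tested.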

How the data were processed

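Per the labels' protocols, CD45+ heart cells went into 10x Genomics 3′ droplet libraries, so each UMI tags a transcript near its 3′ end. The deposited values are unnormalised UMI counts for 32285 genes in each cell, per the file headers. Cell Ranger 5.0.0, Seurat 3 and mm10 are named by the submitters' processing notes; what Seurat was used for is not stated. Coordinates and the chromosome of each gene came from GENCODE vM21 (GRCm38).

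Members were chosen per cell by the thresholds given in the report. Doublets were kept: scrublet's own threshold marked 0 to 3 cells per library, and removal of the cells with the highest scores (0.8% for every 1000 cells) is an alternative. Counts were summed per library over members, filtered by edgeR's rule on low counts, TMM-normalised and fitted in edgeR 4.0.16 by quasi-likelihood with an F test (R 4.3.3, limma 3.58.1) on group alone in all 6 libraries, which left 3 residual degrees of freedom. The SE is the size of the log2 fold change over the square root of F. CPM values use the TMM factors (0.960 to 1.03). DESeq2 1.42.0 was an alternative. Cells were read with Python 3.11.15 and scanpy 1.11.5. The fits were run on simulated counts with planted changes, drawn from a pooled profile with the same spread for every gene. Those counts held no differences in cell content between libraries, so that run does not measure false calls in these data. Replicate libraries differed by more than sampling noise, with chi-square values per degree of freedom of 2.73 to 4.33. Cells of different depth were compared after thinning to 2000 UMIs, which left out 10.0% to 13.8% of members.

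The members and the gene lists were chosen with earlier results of these data known. Genes named are, per comparison, the 12 largest called rises and falls with at least 20 CPM in the higher group and no overlap between the groups' libraries (rule genes, unnamed gene models, ribosomal, mitochondrial and immunoglobulin genes left out), up to 4 called members of each list by smallest p (2 where none was called), fixed key genes, and the 6 largest called interactions in each direction. Genes outside this rule are said to be so. The planned comparison with endocardial cells was not run, since 0 to 5 cells per library met its rule. Some genes that the rule names are not reported here.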

Additional observations from a re-analysis of the deposited data

Results flagged for a closer look

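These genes differed between capillary cells and macrophages in their radiation difference by the interaction test itself (edgeR, adjusted p under 0.05), with values as capillary minus macrophage log2 fold change. More positive in capillary cells were Ccdc184 (5.63), Ltc4s (3.84), Upp1 (3.06), Gdf15 (2.75), Spats2l (2.64), Cpne8 (2.56), Zmat3 (1.47), Vcam1 (1.35), Bax (1.20), Ccnd1 (1.10), Phlda3 (0.92), Cdkn1a (0.81) and Mdm2 (0.73). More negative were Ptn (-7.02), Ifi44 (-3.21), Lbp (-2.88), Fgl2 (-2.73), Sdc1 (-2.49), Pde5a (-2.39), Vwf (-2.34), Ly6a (-2.06) and Irf7 (-0.86).

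Cpne8 was at 59.1 and 72.0 CPM in irradiated and 53.4 and 56.1 CPM in sham capillary cells, and at 3.62 and 4.49 CPM in irradiated and 20.6 and 20.3 CPM in sham macrophages. Spats2l was at 22.4 and 23.6 CPM in irradiated and 26.9 and 19.5 CPM in sham capillary cells, and at 1.39 and 1.03 CPM in irradiated and 8.01 and 7.22 CPM in sham macrophages. Ccdc184 had 2 and 1 UMIs in irradiated WT and 5 and 13 in sham macrophages. Ptn had 1 and 1 in irradiated WT, 109 and 14 in sham and 48 and 92 in irradiated knockout-labelled capillary cells. The fitted values of both genes depend on the prior count and are no bounds. Ifi44 was at 83.4 and 86.4 CPM in irradiated and 61.6 and 62.2 CPM in sham capillary cells, against 13.4 and 9.70 CPM in irradiated and 1.07 and 0.764 CPM in sham macrophages. Upp1 had 2 and 12 UMIs in irradiated WT and 12 and 30 in sham macrophages. Lbp was at 1.23 and 2.12 CPM in irradiated WT and 0.826 and 0.764 CPM in sham macrophages. Pde5a was at 2.08 and 2.44 CPM in irradiated WT and 0.661 and 0.694 CPM in sham macrophages. The differences of Upp1, Lbp and Pde5a thus rest on low macrophage levels.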

How the results depend on the processing

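Of the 98 named genes called between irradiated and sham WT, 22 kept their direction and their call under every alternative run, among them Gdf15, Ltc4s, Phlda3, Apln, Bax, Cdkn1a, Mdm2, Zmat3, Eda2r, Ccnd1, Sparc and Vim, and 0 reversed. Of 14 such genotype calls 2 did (Aldh1a3 and AY036118), and of 22 interaction calls 9.

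Counts of calls moved more. In the radiation comparison, 851 in the main fit, they were 561 by DESeq2, 1639 with no filter on low counts, 290 with the 4 libraries compared, 102 with mitochondrial UMIs limited to 5%, 205 with thinned cells, 507 without cells with mural UMIs, and 274 to 864 with 1 library left out. In the genotype comparison (22) they were 93, 508, 12, 4, 70 and 11 under these settings, 6 to 151 with 1 library left out, 47 with doublets removed, 42 with 6 or more Fabp4 and Gpihbp1 UMIs, and 51 with C1q UMIs under 2 and no Ptprc. Between knockout-labelled and sham libraries (1320) they were 771 by DESeq2, 2083 with no filter, 122 at 5% mitochondrial UMIs, 329 with thinned cells, 631 without cells with mural UMIs and 312 to 1662 with 1 library left out. In the interaction (310) they were 771 with no filter, 48 at 5% and 110 to 283 with 1 library left out. Median-ratio size factors moved no count by 1.5 times. The fits at 5% and with thinned cells held fewer cells or UMIs and tested fewer genes. The cause of the other shifts was not tested.

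Equal replicate numbers did not mark shared samples (correlations of deviations -0.211, -0.0496 and -0.125 over 5000 genes). With the replicate block the counts were 513, 7 and 948, and with the numbers of the irradiated WT libraries crossed 872, 20 and 1343. The share of capillary cells, irradiated WT minus sham, was -0.588 percentage points, 1.60 at 5% mitochondrial UMIs and -1.02 to -0.157 with 1 library left out. Unthinned, 54.3% of irradiated WT cells had Gdf15. Reversed under an alternative, none of them called there, were Tmem173 (-0.014 in the radiation and 0.066 in the genotype comparison with C1q under 2 and no Ptprc), Klf2 (radiation, -0.52 to 0.033 with 1 library left out, positive without irradiated WT replicate 1), Myl9 and Tpm2 (0.34 and 0.32 in the genotype comparison at 5%), Gdf15 (genotype, -0.39 to 0.055 with 1 library left out, positive without irradiated WT replicate 2) and Apln (-1.16 in the interaction at 5%).

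Cells removed with mural, lymphatic or neutrophil UMIs, and the crossed numbers, were alternatives chosen after seeing the data. The comparison with endocardial cells and its alternatives were not run. With 2 libraries per group and 3 residual degrees of freedom, a p above the threshold does not show equality.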
